A study of Mus musculus with 22 samples.

Results

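Rab GTPases of vesicle trafficking were described across the conventional dendritic cell (cDC) subsets of mouse spleen and mesenteric lymph node (MLN). A gene was a member if its symbol was Rab followed by a number, with or without a letter, and if it had at least 10 counts in at least 2 of the 16 RNA-seq libraries. Of 34047 genes in the count table, 59 had such a symbol and 55 of these were members. The other 4, Rab25, Rab27b, Rab3b and Rab40b, never had 10 counts in more than 1 library. The rule used no difference between subsets.

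Rab proteins are small GTPases that give each membrane of the secretory and endocytic routes its identity. An exchange factor loads a Rab with GTP on its target membrane, where it recruits effectors such as tethers and motors, and a GTPase-activating protein ends the signal, after which GDI extracts the prenylated Rab to the cytosol. In dendritic cells this traffic carries antigen through endosomes, phagosomes and lysosomes, moves MHC and Toll-like receptors between compartments, and serves cytokine secretion. cDC1s are known for cross-presentation of antigen from dead cells, and cDC2s for presentation to CD4 T cells.

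The cells came from Tbx21RFP-cre reporter mice, 6 to 10 weeks old, in which an RFP-cre knock-in at Tbx21 marks T-bet expression and which are homozygous for the knock-in per the methods. Cells that were Lin-, CD64-, Ly6C-, CD11c+ and MHCII+ were sorted as CD11b- XCR1+ (cDC1), or as CD11b+ XCR1- cells with RFP (T-bet+ cDC2) or without it (T-bet- cDC2), and each RNA library held cells pooled from 2 mice. One sentence of the methods assigns the RFP signs the other way round, and the sample labels were followed here. RNA-seq covered 3 spleen libraries per subset, 3 MLN libraries of cDC1s and 2 of either cDC2 subset (the methods name 2 biological replicates for MLN), and ATAC-seq covered 2 spleen libraries per subset. The mice were naive, and all groups carry the knock-in.

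Spleen libraries held 20993220 to 27317480 counts on genes and MLN libraries 22733964 to 29006549. Levels are given as CPM, counts scaled by library size after TMM normalization. A count of 0 allows up to 3 counts for counting error alone. By the library totals before TMM normalization, 3 counts correspond to 0.103 to 0.143 CPM. The 8 listed cDC1 genes summed to 6784 to 7352 CPM in spleen cDC1s and to 148 to 595 CPM in the spleen cDC2 libraries, and 7 of the 8 had their highest spleen mean in cDC1s, all but Batf3 (116 CPM in cDC1s and in T-bet+ cDC2s). Tbx21 was at 21.5 CPM on average in T-bet+ and at 1.38 CPM in T-bet- spleen cDC2s. Of the 5 listed T-bet+ genes 4 had a higher mean in the T-bet+ subset, with Cd4 as the exception in spleen and Esam in MLN. All 6 listed T-bet- genes had a higher mean in the T-bet- than in the T-bet+ subset, though Clec12a was at 222 CPM in spleen cDC1s and at 210.2 CPM in spleen T-bet- cDC2s. Libraries differed in how their levels followed the GC content of transcripts. Spearman's rho between a library's deviation from the mean level and the GC content of each transcript's richest 100 bases was 0.205 to 0.343 in 6 spleen libraries (all 3 of T-bet+ cDC2s, cDC1 replicates 1 and 2, and T-bet- cDC2 replicate 3), called the higher class. In the other 3 spleen libraries (cDC1 replicate 3, T-bet- cDC2 replicates 1 and 2) it was -0.403 to -0.171, and in the MLN libraries it was -0.322 to 0.0398. All MLN libraries were thus of the lower class with these 3, and within spleen T-bet+ cDC2s have no library of the lower class. In sorted bulk samples fewer cells that express a gene and less RNA per cell cannot be told apart, and p-values measure only the spread between these libraries.

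The members spanned the range from housekeeping levels to traces. Of the 55, 36 were above 1 CPM in every library, and 11 had a mean under 1 CPM. Per kilobase of exon, the highest mean levels over the 16 libraries were those of Rab7 (138 CPM per kilobase), which directs late endosomes to lysosomes, and Rab1b (138), which acts between the endoplasmic reticulum and the Golgi. Rab32 (114), a Rab of lysosome-related organelles, and the exocytic Rab8b (110) and Rab8a (104) came next, and these 5 genes held 52.0% of the summed level of all members. The lowest were Rab9b, Rab15 and Rab3c.

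**Figure D1:**
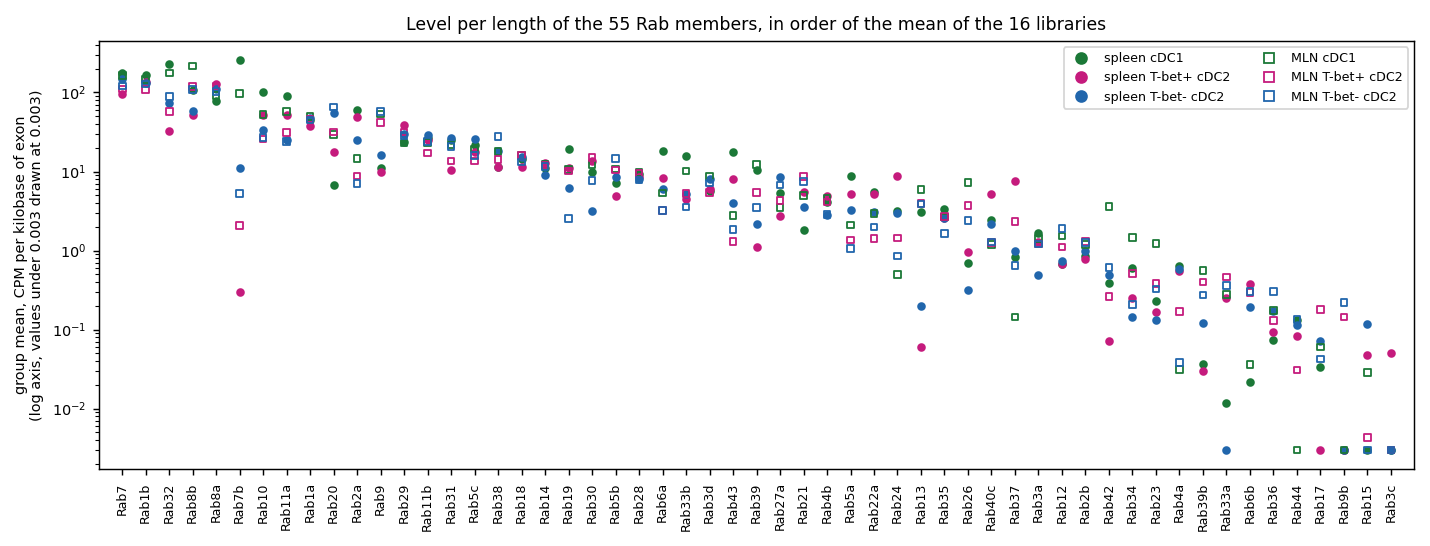
Group means of the 55 Rab members in CPM per kilobase of exon (log axis), ordered by the mean of the 16 libraries, with filled circles for spleen and open squares for MLN. Most members lie close together across groups, whereas Rab7b spreads from 0.300 in spleen T-bet+ cDC2s to 256 in spleen cDC1s.

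Summed over all members, the level per kilobase was 1612 ± 31.0 CPM (SD, n = 3) in spleen cDC1s, 908 ± 27.1 CPM in T-bet+ cDC2s and 975 ± 27.1 CPM in T-bet- cDC2s. No cDC1 library overlapped a cDC2 library, with 1576 as the lowest cDC1 and 1001 as the highest cDC2 value. By role, late endosome and lysosome Rabs held 481 ± 55.3 in cDC1s against 156 ± 6.85 CPM in the T-bet+ and 212 ± 19.0 CPM in the T-bet- subset, and the pair of lysosome-related organelle Rabs 238 ± 37.4 against 44.2 ± 5.22 and 92.5 ± 3.78. Rab7b alone held 256 of the first sum, and without it late endosome and lysosome Rabs held 225 ± 39.2 CPM in cDC1s, 155 ± 6.69 CPM in T-bet+ and 201 ± 15.9 CPM in T-bet- cDC2s, where cDC1s and T-bet- cDC2s overlapped. Of the lysosome-related pair, Rab38 alone held 11.3 CPM in cDC1s, so Rab32 carried that sum. Rab27a, which also serves lysosome-related organelles, was grouped with the exocytic Rabs and is not in this pair. Early endosome and phagosome Rabs had their highest sum in the T-bet- subset, at 76.6 ± 3.98 CPM in cDC1s, 66.6 ± 1.83 CPM in T-bet+ and 126 ± 13.2 CPM in T-bet- cDC2s. Without Rab20 these became 69.7 ± 5.37, 48.98 ± 0.390 and 71.4 ± 4.99 CPM. Without Rab7b the sum over all members was 1311 to 1399 CPM in cDC1s and at most 994 CPM in a cDC2 library. In MLN the sum over all members was 1413 ± 88.8 CPM in cDC1s (n = 3), 930 ± 164 CPM in T-bet+ and 1014 ± 29.7 CPM in T-bet- cDC2s (n = 2 for both), again without overlap between cDC1s and cDC2s. These sums were not tested.

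In spleen, 49 members passed the filter on low counts. Of these, 13 differed between cDC1s and the mean of both cDC2 subsets, 8 higher and 5 lower in cDC1s. A call needed an adjusted p under 0.05 (edgeR's quasi-likelihood test, adjusted over all 14377 genes). Among all genes tested 19.6% were called in this comparison, 9.01% higher and 10.6% lower, beside 26.5% of the members. The median log2 fold change was 0.17 over the members and 0.02 over all genes. The 8 members higher in cDC1s were Rab7b, Rab13, Rab39, Rab32, Rab33b, Rab11a, Rab19 and Rab7, and the 5 lower were Rab6b, Rab20, Rab37, Rab21 and Rab8a. Some of them passed the threshold against 1 subset only. Rab11a passed against T-bet- (adjusted p = 0.0171) and not T-bet+ cDC2s (0.247). Rab21 and Rab8a passed against T-bet+ (0.0102 and 0.0152) and not T-bet- cDC2s (0.0855 and 0.0603). Rab7 and Rab37 also passed against T-bet+ cDC2s only. Without overlap between all 3 cDC1 and all 6 cDC2 libraries were 10 members, 6 higher and 4 lower, which is 20.4% of the members beside 19.7% of all genes.

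**Figure D2:**
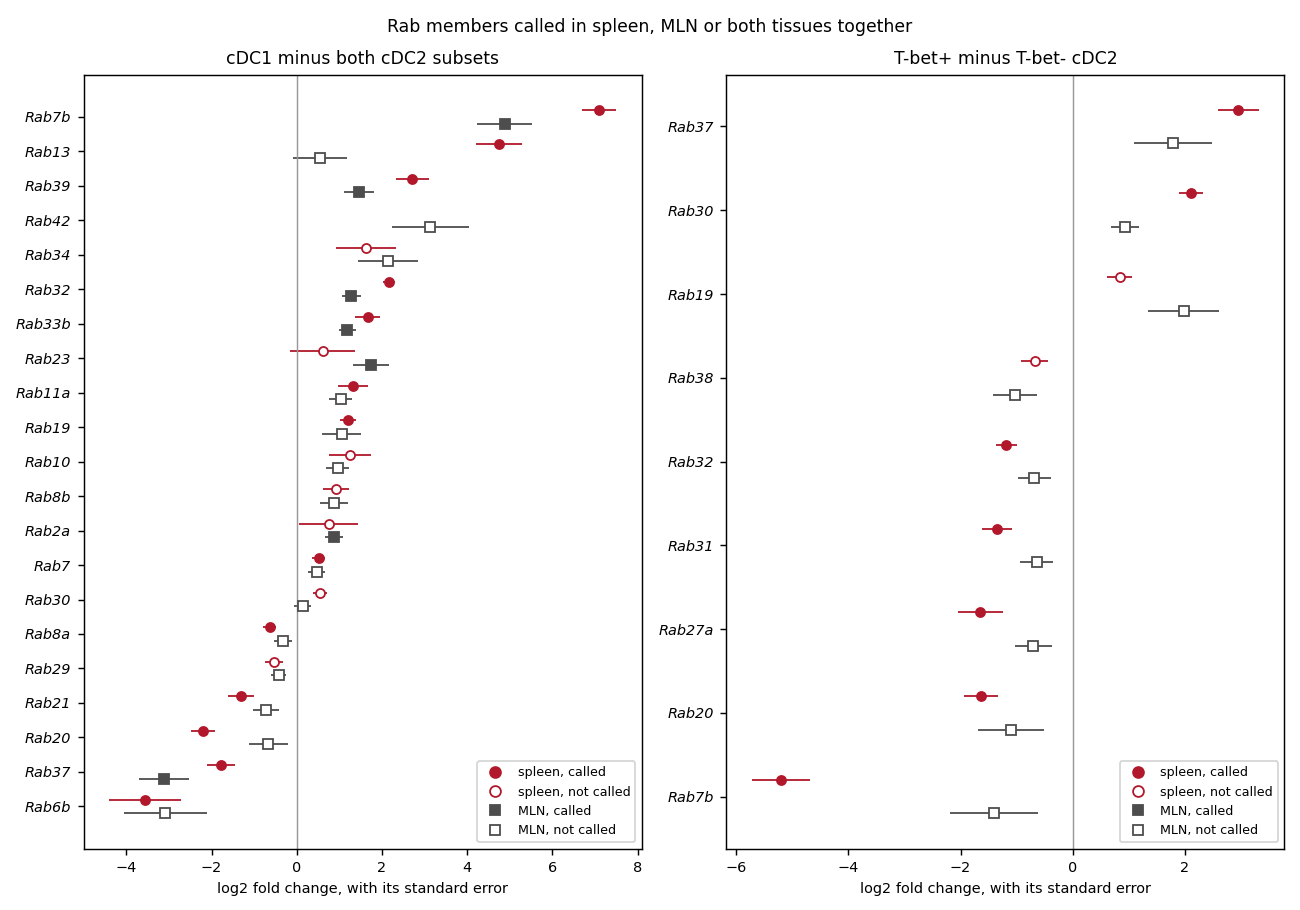
Log2 fold change with its standard error for members called in spleen, in MLN or in both tissues together (spleen circles, MLN squares, filled where the adjusted p was under 0.05). Left, cDC1s minus the mean of both cDC2 subsets, with Rab7b at 7.09 in spleen and 4.88 in MLN. Right, T-bet+ minus T-bet- cDC2s, where no MLN square is filled.

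Late endosome and lysosome Rabs gave 3 of the 8 members that were higher in cDC1s, and none of the 8 tested was lower. Rab7b (chr1:131688695-131715439, + strand, GRCm38), which retrieves cargo from endosomes to the Golgi and controls the traffic of Toll-like receptors, was at 1225, 1061 and 1263 CPM in the 3 spleen cDC1 libraries, at 60.2, 59.4 and 34.0 CPM in T-bet- cDC2s, and at 1.99, 1.75 and 0.413 CPM in T-bet+ cDC2s. Every cDC1 library was far above every cDC2 library, and every T-bet- library above every T-bet+ library. Per kilobase, Rab7b had the highest mean level of all members in spleen cDC1s. Its log2 fold change was 7.09 ± 0.41 (SE; 137-fold higher in cDC1s, adjusted p = 3.92e-06). Against each subset alone it was 9.70 ± 0.62 (T-bet+, adjusted p = 8.56e-06) and 4.49 ± 0.49 (T-bet-, adjusted p = 0.000226).

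Rab39, which acts in phagosome and endosome maturation, was at 18.4, 24.9 and 50.2 CPM in cDC1s. It was at 2.85, 3.95 and 2.97 CPM in T-bet+ and 9.01, 2.72 and 7.69 CPM in T-bet- cDC2s, below the lowest cDC1 library in every case. The log2 fold change was 2.71 ± 0.40 (adjusted p = 0.00107). Rab7 itself was at 383, 437 and 549 CPM in cDC1s, 234, 276 and 242 CPM in T-bet+ and 416, 395 and 352 CPM in T-bet- cDC2s. The cDC1 range thus overlapped the T-bet- range and lay above the T-bet+ range. Its log2 fold change was 0.51 ± 0.15 (adjusted p = 0.0395), and against T-bet+ cDC2s alone it was 0.83 ± 0.18 (adjusted p = 0.00996). The call on Rab7 was lost in 12 of 16 other ways to run the test (adjusted p up to 0.172). Rab9 and Rab34, both at work on late endosomes and lysosomes, had log2 fold changes of -0.21 ± 0.25 and 1.62 ± 0.71 and were not called.

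Of the lysosome-related organelle Rabs, Rab32 was higher in cDC1s, while its close relative Rab38 was not called. Both are known from melanosomes, where they are activated by the BLOC-3 complex that Hps4 belongs to. Rab32 (chr10:10545002-10558265, - strand) was at 479, 483 and 625 CPM in spleen cDC1s, 65.5, 87.7 and 76.6 CPM in T-bet+ cDC2s and 184, 157 and 180 CPM in T-bet- cDC2s. The groups did not overlap and followed the order cDC1, T-bet- cDC2, T-bet+ cDC2. The log2 fold change was 2.16 ± 0.15 (4.48-fold, adjusted p = 1.17e-05), and that of Rab38 was -0.39 ± 0.21 (adjusted p = 0.248). Hps4, from the list of exchange factors, was also higher in cDC1s, in spleen (1.32 ± 0.18, adjusted p = 0.000736) as in MLN (adjusted p = 0.00694).

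**Figure D3:**
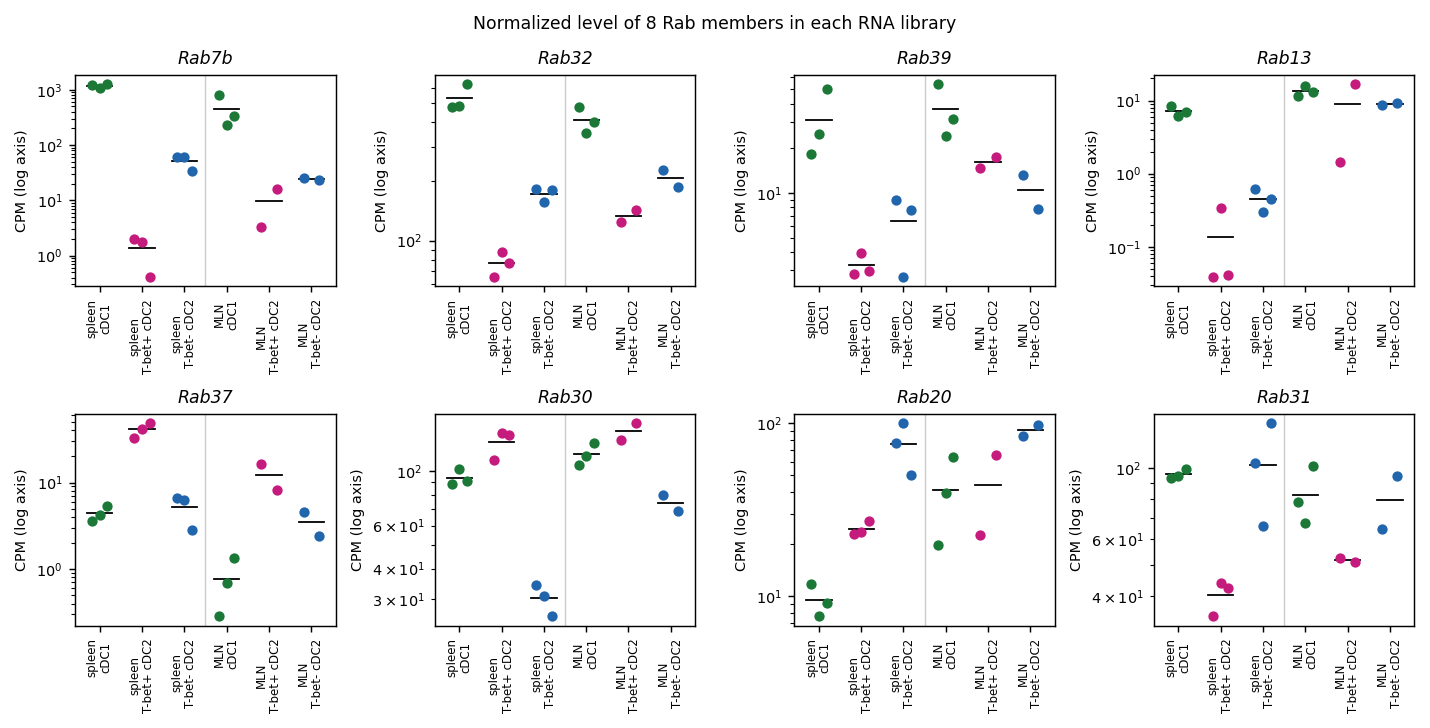
Level in each RNA library (CPM, log axes) of 8 Rab members called in spleen, with cDC1s in green, T-bet+ cDC2s in magenta and T-bet- cDC2s in blue, spleen to the left of the grey line and MLN to the right, and a bar at each group mean. Rab7b, Rab32 and Rab39 are highest in cDC1s of both tissues, and Rab37 is highest in T-bet+ cDC2s.

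Among the 12 tested Rabs of the endoplasmic reticulum and Golgi, 2 were higher and 1 was lower in cDC1s. Rab33b, a Golgi Rab that binds the autophagy protein Atg16l1, was at 39.1, 50.98 and 77.5 CPM in spleen cDC1s. In cDC2s it was between 9.58 and 22.4 CPM, below every cDC1 library (log2 fold change 1.66 ± 0.29, adjusted p = 0.00295). It shares exon sequence with Gm38160 on the other strand, and since strand use in counting is not given in the sources used here, their reads cannot be told apart. Rab19, another Golgi Rab, was at 30.4, 27.3 and 33.5 CPM in cDC1s, 16.1, 19.2 and 16.9 CPM in T-bet+ and 11.6, 8.42 and 9.08 CPM in T-bet- cDC2s, again without overlap between cDC1s and cDC2s (1.19 ± 0.19, adjusted p = 0.0017). Rab6b, the form of Rab6 known from neurons, was a low gene, with 3, 5 and 0 counts in the cDC1 libraries and 13 to 78 counts in the cDC2 libraries (log2 fold change -3.57 ± 0.84, adjusted p = 0.0147).

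The exocytic Rabs moved in both directions. Rab13, a Rab of polarized exocytosis and junctions, had 209, 148 and 136 counts in spleen cDC1s (8.36, 6.06 and 6.88 CPM), 1, 9 and 1 counts in T-bet+ and 13, 6 and 12 counts in T-bet- cDC2s. The cDC1 libraries stood clear of all others at a low level, with a log2 fold change of 4.74 ± 0.54 (adjusted p = 0.000241). Rab8a, which carries cargo from the Golgi to the plasma membrane, was at 382, 302 and 411 CPM in cDC1s and 455 to 607 CPM in cDC2s (-0.64 ± 0.15, adjusted p = 0.0154). Rab37, known from secretory granules, was also lower in cDC1s (-1.78 ± 0.33, adjusted p = 0.00397), but its cDC1 range of 3.60 to 5.36 CPM overlapped the 2.84 to 6.64 CPM of T-bet- cDC2s and the difference lay against T-bet+ cDC2s (-3.26 ± 0.37, adjusted p = 3e-04).

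Early endosome and phagosome Rabs gave no member that was higher in cDC1s and 2 of 7 that were lower. Rab20, which acts in phagosome maturation, was at 11.7, 7.65 and 9.16 CPM in cDC1s, 22.8, 23.5 and 27.3 CPM in T-bet+ and 77.4, 99.9 and 50.4 CPM in T-bet- cDC2s. The 3 subsets did not overlap (log2 fold change -2.21 ± 0.28, 4.64-fold lower, adjusted p = 0.000477). Some of its exon bases are shared with E230013L22Rik on the other strand, and the use of strand in counting is not given in the sources used here. Rab21, an early endosome Rab that handles integrins, was at 8.22 to 10.6 CPM in cDC1s and 11.3 to 31.7 CPM in cDC2s (-1.31 ± 0.31, adjusted p = 0.0162). The only called recycling endosome Rab was Rab11a, at 325, 331 and 158 CPM in cDC1s and 38.7 to 163 CPM in cDC2s (1.32 ± 0.35, adjusted p = 0.0259), where the lowest cDC1 library, replicate 3, fell within the cDC2 range. The call on Rab11a was lost in 7 of the 16 other ways to run the test.

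In MLN, 7 of 50 tested members differed between cDC1s and the mean of both cDC2 subsets (edgeR, adjusted p under 0.05), 6 higher and 1 lower. Of all 15298 genes tested there 9.16% were called, 3.69% higher and 5.46% lower, and the median log2 fold change was 0.30 over the members. Rab7b was at 792, 229 and 335 CPM in MLN cDC1s, 3.24 and 15.9 CPM in T-bet+ and 25.8 and 23.1 CPM in T-bet- cDC2s (log2 fold change 4.88 ± 0.65, adjusted p = 0.00409). Every cDC1 library was again above every cDC2 library. Rab32 was at 477, 354 and 403 CPM in cDC1s against 124 to 228 CPM in cDC2s (1.276 ± 0.22, adjusted p = 0.0126), and Rab33b at 35.2 to 36.4 CPM against 12.5 to 20.5 CPM (1.19 ± 0.19, adjusted p = 0.00952). Rab37 was lower, at 0.287, 0.697 and 1.33 CPM in cDC1s against 2.40 to 16.6 CPM (-3.12 ± 0.60, adjusted p = 0.0176). Rab39 (1.46 ± 0.35), the Hedgehog regulator Rab23 (1.75 ± 0.42) and the Golgi Rab2a (0.87 ± 0.20) were called with adjusted p between 0.0374 and 0.0398. In MLN 18 of 50 members (36.0%, 13 higher and 5 lower) did not overlap between cDC1s and cDC2s, beside 22.9% of all genes.

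With both tissues in 1 fit, 19 of 54 tested members were called in the mean of the spleen and MLN differences, 13 higher and 6 lower in cDC1s, beside 25.3% of all 16795 genes (12.4% higher, 12.8% lower). These were the 13 members called in spleen and 6 others. Called here and in neither tissue alone were Rab10 (1.13 ± 0.33), Rab8b (0.94 ± 0.24), Rab34 (1.902 ± 0.53), Rab42 (2.09 ± 0.71), Rab30 (0.37 ± 0.12) and Rab29 (-0.46 ± 0.13). For Rab30 the call is on a mean of opposite differences, as cDC1s lay between the cDC2 subsets in both tissues. Against T-bet- cDC2s alone its log2 fold change was 1.598 in spleen and 0.59 in MLN. Against T-bet+ cDC2s alone it was -0.51 in spleen and -0.33 in MLN, neither of them called. Rab10 and Rab8b serve transport to the cell surface, Rab34 and Rab29 act on lysosomes and the Golgi. No member differed between spleen and MLN in its cDC1 difference (0 of 54 by edgeR, 7 at an unadjusted p under 0.05, beside 0.113% of all genes called, 0.0595% higher and 0.0536% lower). By DESeq2 2 members and 218 of 34047 genes were called. The smallest adjusted p by edgeR was that of Rab13 (0.0936). Its MLN libraries were at 11.5, 16.02 and 12.95 CPM in cDC1s, 1.45 and 16.7 CPM in T-bet+ and 8.58 and 9.29 CPM in T-bet- cDC2s. The T-bet+ libraries thus lay on both sides of the cDC1 range.

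**Figure D4:**
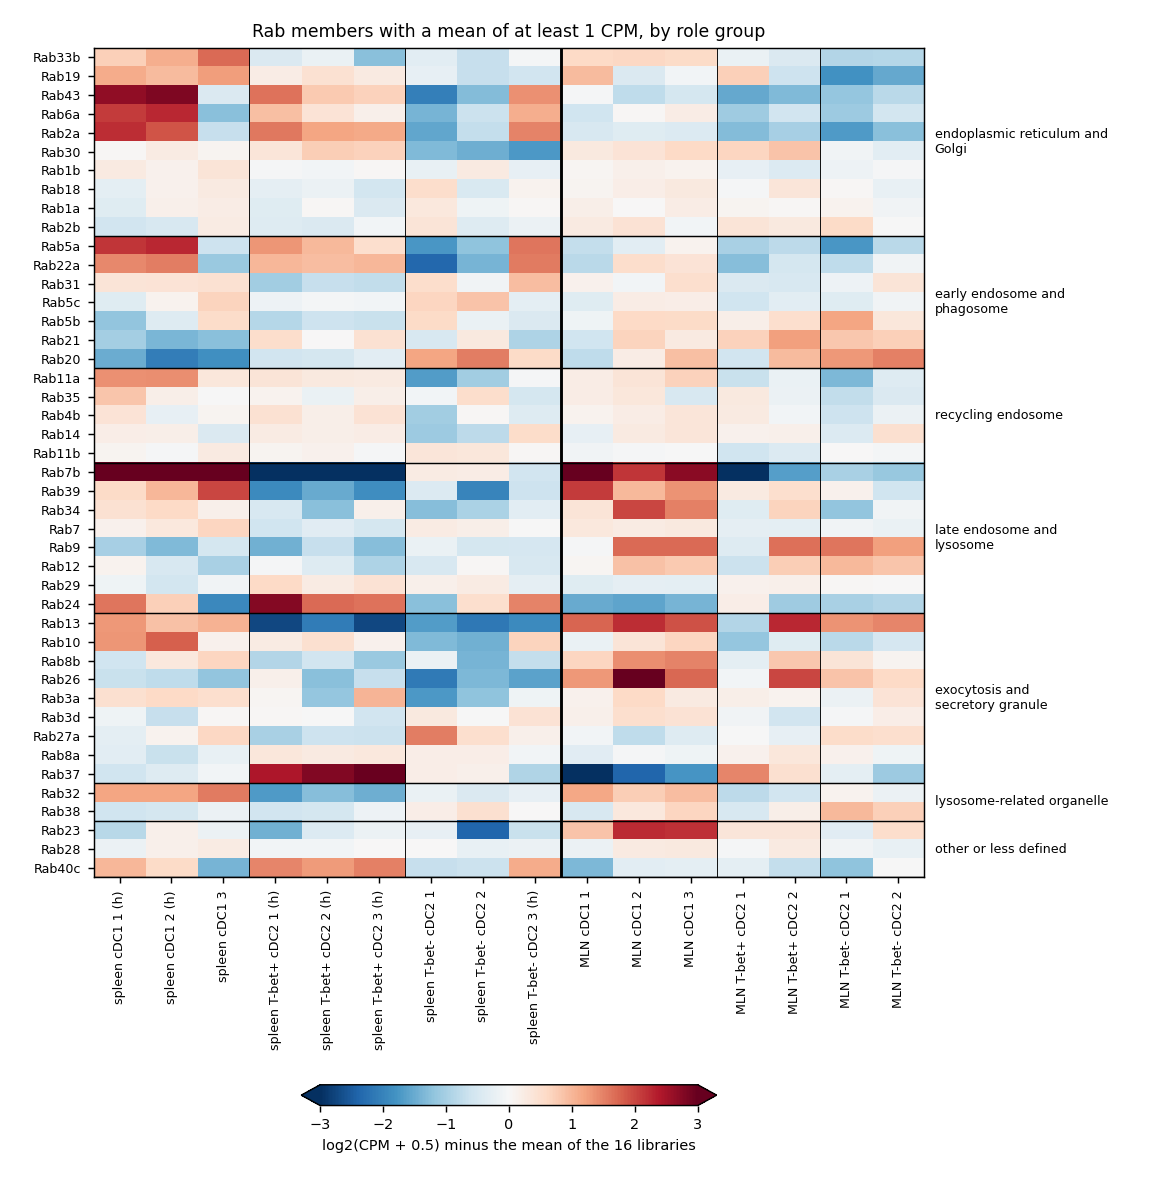
Members with a mean of at least 1 CPM, by role group, in each of the 16 libraries as log2(CPM + 0.5) minus the mean of the 16 libraries (red higher, blue lower, colours end at 3), with (h) marking libraries of the higher GC class. Rab2a, Rab5a, Rab22a and Rab43 are red in the spleen libraries marked (h) and blue in the spleen libraries not so marked, across subsets, and Rab7b, Rab32 and Rab37 follow the subset.

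For several Rabs that are well known in dendritic cells, the levels in spleen separated the libraries by GC class. Rab43, described in cross-presentation by cDC1s, was at 133 and 146 CPM in cDC1 replicates 1 and 2 but at 15.1 CPM in replicate 3, and at 53.2 CPM in T-bet- cDC2 replicate 3 but at 4.55 and 8.02 CPM in replicates 1 and 2. Most of its exon length also overlaps Gm45140, which makes the count uncertain. Rab5a, the Rab of early endosome fusion, was at 19.5 to 67.5 CPM in the 6 libraries of the higher class and 3.70 to 8.70 CPM in the other 3. In all, 12 of 49 members did not overlap between the classes (24.5%, beside 14.9% of all genes). Rab14, Rab22a, Rab24, Rab2a, Rab40c, Rab43, Rab5a and Rab6a were higher in the higher class (12.1% of all genes) and Rab11b, Rab27a, Rab5b and Rab5c lower (2.78%). The richest 100 bases of the 8 transcripts had a median GC content of 83.0%, beside 72.0% for all genes, and the class was itself set by this measure.

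None of these 12 was called between cDC1s and cDC2s in spleen. With the class as a term in the fit, 19 members were called in place of 13, the 13 included. Of the 19, 14 were higher in cDC1s. Over all 14377 genes the count also rose, from 2824 to 3824. Rab43 then had a log2 fold change of 1.45 (adjusted p = 0.00151), Rab10 of 1.27 (adjusted p = 0.00028), Rab5a of 0.99 (adjusted p = 0.007) and Rab6a of 0.93 (adjusted p = 0.0385). Within the 6 spleen libraries of the higher class alone, T-bet- cDC2s have 1 library. There the log2 fold change was 1.51 for Rab43, 1.09 for Rab10, 1.39 for Rab6a and 0.92 for Rab5a. In the MLN libraries, which are all of the lower class, Rab43 was at 19.8, 11.8 and 14.1 CPM in cDC1s and 6.75 to 11.3 CPM in cDC2s, without overlap but not called (0.81 ± 0.27, adjusted p = 0.114).

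Between the cDC2 subsets in spleen, 7 of 49 members were called (edgeR, adjusted p under 0.05), 2 higher and 5 lower in T-bet+ cDC2s. Of all genes 5.38% were called, 1.95% higher and 3.44% lower, beside 14.3% of the members, and the median log2 fold change was 0.00 over the members and -0.01 over all genes. Without overlap between the 3 T-bet+ and the 3 T-bet- libraries were 19 members (38.8%, 10 higher and 9 lower), beside 27.0% of all genes.

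Rab37 and Rab30 were higher in T-bet+ cDC2s. Rab37 (chr11:115091431-115162236, + strand) was at 33.0, 42.0 and 48.1 CPM in T-bet+ and 6.64, 6.35 and 2.84 CPM in T-bet- cDC2s, with cDC1s at 3.60, 4.22 and 5.36 CPM. The T-bet+ libraries stood apart from all others, and the log2 fold change was 2.95 ± 0.37 (7.73-fold, adjusted p = 0.00209). Rab30 (chr7:92741603-92844535, + strand), a Golgi Rab, was at 111, 144 and 140 CPM in T-bet+ and 34.4, 31.0 and 25.6 CPM in T-bet- cDC2s, with cDC1s between them at 88.6, 102 and 91.5 CPM. No library of 1 subset fell within another (2.11 ± 0.21, 4.31-fold, adjusted p = 0.000696).

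Rab7b, Rab20, Rab31, Rab32 and Rab27a were lower in the T-bet+ subset. The difference was largest for Rab7b (log2 fold change -5.21 ± 0.52, adjusted p = 0.000663), whose T-bet+ libraries held 51, 47 and 10 counts and whose T-bet- libraries held 1270, 1179 and 909. Rab32 had -1.19 ± 0.18 (adjusted p = 0.00668) and Rab20 -1.64 ± 0.30 (adjusted p = 0.0133), with the library values given above. Rab31, which moves cargo between the trans-Golgi and endosomes, was at 34.7, 43.9 and 42.5 CPM in T-bet+ and 104, 65.9 and 137 CPM in T-bet- cDC2s (-1.35 ± 0.27, adjusted p = 0.0195). The cDC1 libraries, at 93.1 to 98.9 CPM, lay within the T-bet- range. Rab27a, which docks lysosome-related organelles and secretory granules at the plasma membrane, was at 8.87, 11.6 and 11.2 CPM in T-bet+ and 52.9, 25.5 and 20.1 CPM in T-bet- cDC2s (-1.65 ± 0.39, adjusted p = 0.0429). Some of its exon bases are shared with Gm27186 on the same strand, so its count is uncertain. Rab27a was among the members that did not overlap between the GC classes, and with the class as a term its log2 fold change was -1.03 (adjusted p = 0.153). Within the 6 libraries of the higher class T-bet- cDC2s have 1 library, which the fit, chosen after seeing the data, assumes to vary like the other subsets. Rab7b, Rab32 and Rab31 passed the threshold there, and Rab27a (-0.94, adjusted p = 0.16) and Rab20 (-1.05, adjusted p = 0.108) did not.

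Most listed genes of macrophages had higher means in the T-bet- subset, 7 of 7 in spleen and 6 of 7 in MLN. The exception was Adgre1, at 278 CPM in T-bet+ and 89.7 CPM in T-bet- MLN cDC2s and at 370.1 and 419 CPM in spleen. The 7 listed macrophage markers summed to 1065 to 1484 CPM in spleen T-bet- cDC2s, 449 to 530 CPM in T-bet+ cDC2s and 111 to 213 CPM in cDC1s, with C1qa at 178, 15.9 and 6.48 CPM on average. In MLN the sum was 1417 to 2443 CPM in T-bet- and 399 to 400.2 CPM in T-bet+ cDC2s. The sort removed CD64+ cells. No marker on the list was at 0 throughout a group. The cDC1 markers summed to 241 to 595 CPM in spleen T-bet- and 148 to 245 CPM in T-bet+ cDC2s. The part of RNA from macrophages or cDC1s in the levels of Rab7b, Rab20, Rab27a, Rab31 and Rab32 in T-bet- libraries was not tested.

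In MLN no member was called between the cDC2 subsets. The count was 0 of 50 by edgeR, where 0.0% of all genes were called, and 5 members were at an unadjusted p under 0.05. DESeq2 also called no member, beside 328 of 27006 genes. Rab37 was at 16.6 and 8.10 CPM in T-bet+ and 4.53 and 2.40 CPM in T-bet- cDC2s (log2 fold change 1.78 ± 0.69, adjusted p = 0.482), and Rab30 at 134 and 157 CPM against 80.1 and 68.7 CPM (0.92 ± 0.25, adjusted p = 0.334). For both genes every T-bet+ library was above every T-bet- library. Without overlap were 22 of 50 members (44.0%, 9 higher and 13 lower, beside 41.1% of all genes), and for Rab7b, Rab20, Rab27a, Rab31, Rab32 and Rab38 both T-bet+ libraries were below both T-bet- libraries. With both tissues in 1 fit, 9 of 54 members were called, 3 higher (Rab37, Rab30, Rab19) and 6 lower (Rab7b, Rab20, Rab27a, Rab31, Rab32, Rab38), beside 5.95% of all genes (2.29% and 3.67%). Rab19, called only there, had a log2 fold change of 1.42 ± 0.31 (adjusted p = 0.0129), and Rab38 -0.84 ± 0.23 (adjusted p = 0.0493). With the GC class as a term in this fit 6 of the 9 were called, and Rab38 (-0.72, adjusted p = 0.113), Rab20 (-1.22, adjusted p = 0.0751) and Rab27a (-0.86, adjusted p = 0.0591) were not. Over all 16795 genes 846 were called in place of 1000. No member differed between the tissues in this comparison (0 of 54 by edgeR, 3 at an unadjusted p under 0.05, beside 0.00595% of all genes called). By DESeq2 1 member and 39 of 34047 genes were called.

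Other Rabs with a known place in phagosomes or dendritic cells were not called in either spleen comparison. For cDC1s minus cDC2s the log2 fold change was 0.00 ± 0.34 for Rab14, which recycles receptors from phagosomes, 0.41 ± 0.81 for Rab22a, known from recycling of MHC class I, 0.34 ± 0.32 for Rab35 and 0.17 ± 0.66 for Rab4a, both recycling Rabs, and 0.12 ± 0.36 and -0.04 ± 0.29 for the early endosome Rab5b and Rab5c.

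Among the low members, Rab3c, a Rab of regulated exocytosis in neurons, had 27, 19 and 2 counts in the 3 spleen T-bet+ libraries and 0 in the other 13. Rab9b had no count in any of the 9 spleen libraries. In MLN it had 18 and 30 counts in the T-bet- libraries, 0 and 29 in the T-bet+ libraries and none in cDC1s. Rab33a, a relative of Rab33b, had 0 counts in the 3 spleen T-bet- libraries and up to 27 in MLN T-bet+ replicate 2. Rab3c, Rab9b and Rab33a did not pass the filter on low counts in the spleen fit, so their spleen differences were not tested there. In MLN Rab9b and Rab33a were tested and not called. Rab27b and Rab3b, both exocytic Rabs outside the rule, had at most 8 and 6 counts in a library.

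The regulators of Rabs were taken as a list of 148 genes, of which 133 were tested in spleen. The 8 genes for GDI and prenylation, which all Rabs share, gave no call in any comparison. In spleen cDC1s 24 of the 133 were called, 14 higher (10.5%) and 10 lower (7.52%), beside 19.6% of all genes (9.01% and 10.6%). Of 36 exchange factors 7 were higher and 4 lower (30.6% called), with Dennd2d (log2 fold change 3.11 ± 0.32) and Dennd2a (2.67 ± 0.72) among the higher. Rin2 (-3.54 ± 0.52), an exchange factor for Rab5, Dennd3 (-2.73 ± 0.37), one for Rab12, and Dennd1c (-0.91 ± 0.16) were at the lower end. Of 36 GTPase-activating proteins 4 were higher, led by Rabgap1l (1.47 ± 0.29), Tbc1d14 (1.33 ± 0.20) and Tbc1d22b (1.06 ± 0.29), and 4 lower, led by Tbc1d16 (-4.60 ± 0.35), Tbc1d30 (-2.36 ± 0.27) and Tbc1d4 (-1.298 ± 0.27), or 22.2% called. Of 53 effectors 3 were higher, Micall2 (1.73 ± 0.40), Rab11fip4 (1.54 ± 0.24), which binds Rab11, and Ehbp1l1 (0.55 ± 0.17), and 2 lower, the myosin Myo5a (-1.37 ± 0.34) and Mical3 (-0.89 ± 0.27), or 9.43% called. The median log2 fold changes of these classes were between 0.02 and 0.17.

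In MLN, Dennd2d (2.57 ± 0.30), Rin2 (-3.43 ± 0.53), Tbc1d16 (-3.11 ± 0.74), Tbc1d30 (-2.73 ± 0.43), Rab11fip4 (1.46 ± 0.25) and Myo5a (-1.21 ± 0.22) were called in the same direction. Between the spleen cDC2 subsets 5 of 133 regulators were called (3.76%, beside 5.38% of all genes). Dennd3 (1.57 ± 0.38), Tbc1d10c (1.07 ± 0.21), which acts on Rab35, and the effector Rilpl2 (1.00 ± 0.24) were higher in T-bet+ cDC2s. Rab3il1 (-1.99 ± 0.35), an exchange factor for Rab8, and Tbc1d2b (-1.46 ± 0.32) were lower.

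Chromatin accessibility was measured by ATAC-seq, in which a transposase cuts open DNA, and was counted in windows of 150 bases around peak summits. A window was assigned to a member where the member was the closest gene within 50000 bases of its peak, which gave 418 windows in 167 peaks near 47 members, 401 of them tested. For 67 of the 418 windows other genes were equally close. Windows of 1 gene share its locus and are not replicates. A call needed an adjusted p under 0.01 by edgeR and more than 0.5 in either direction on the log2 scale. Between cDC1s and the mean of both cDC2 subsets 93 windows were called, 60 more open and 33 less open in cDC1s. This is 23.2% of the 401 beside 23.5% of all 166547 windows (13.6% more open and 9.85% less open). Between T-bet+ and T-bet- cDC2s 27 were called, 19 more and 8 less open in T-bet+ cDC2s, or 6.73% beside 6.28% (3.92% and 2.36%).

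Split by the RNA, windows near the 8 members that were higher in spleen cDC1s were more open in cDC1s in 15 of 53 cases (28.3%) and less open in 2. Near the 5 lower members 4 of 42 were more open (9.52%) and 11 less open (26.2%). Near all other members 41 of 306 were more open (13.4%) and 20 less open (6.54%). In the cDC2 comparison, near Rab37 and Rab30, 5 of 30 windows were more open in T-bet+ cDC2s and 0 less open, and near the 5 members that were lower in T-bet+ cDC2s, 2 of 71 were more open and 3 less open. These shares were not tested.

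Rab7b had the most called windows of any member in the cDC1 comparison, 8 of 16 more open and 2 less open in cDC1s. The window over its start was at 13.4 and 20.996 CPM of reads in windows in the 2 cDC1 libraries, 6.60 and 7.12 CPM in T-bet- and 4.11 and 4.25 CPM in T-bet+ cDC2s (log2 fold change 1.68). Within the gene, 1554 bases after the start, a window was at 4.82 and 4.38 CPM in cDC1s, 1.34 and 1.70 CPM in T-bet- and 0.541 and 0.311 CPM in T-bet+ cDC2s (2.49 ± 0.38, adjusted p = 1.3e-07). At 2432 bases after the start, a further window was at 4.94 and 2.96 CPM in cDC1s, 2.32 and 3.01 CPM in T-bet- and 0.865 and 0.622 CPM in T-bet+ cDC2s, and it was the only window near Rab7b called between the cDC2 subsets (-1.84 ± 0.49, adjusted p = 0.00635). In the first of these windows the 3 subsets had the order of the Rab7b RNA, and in the last cDC1s and T-bet- cDC2s met at 2.96 and 3.01 CPM.

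**Figure D5:**
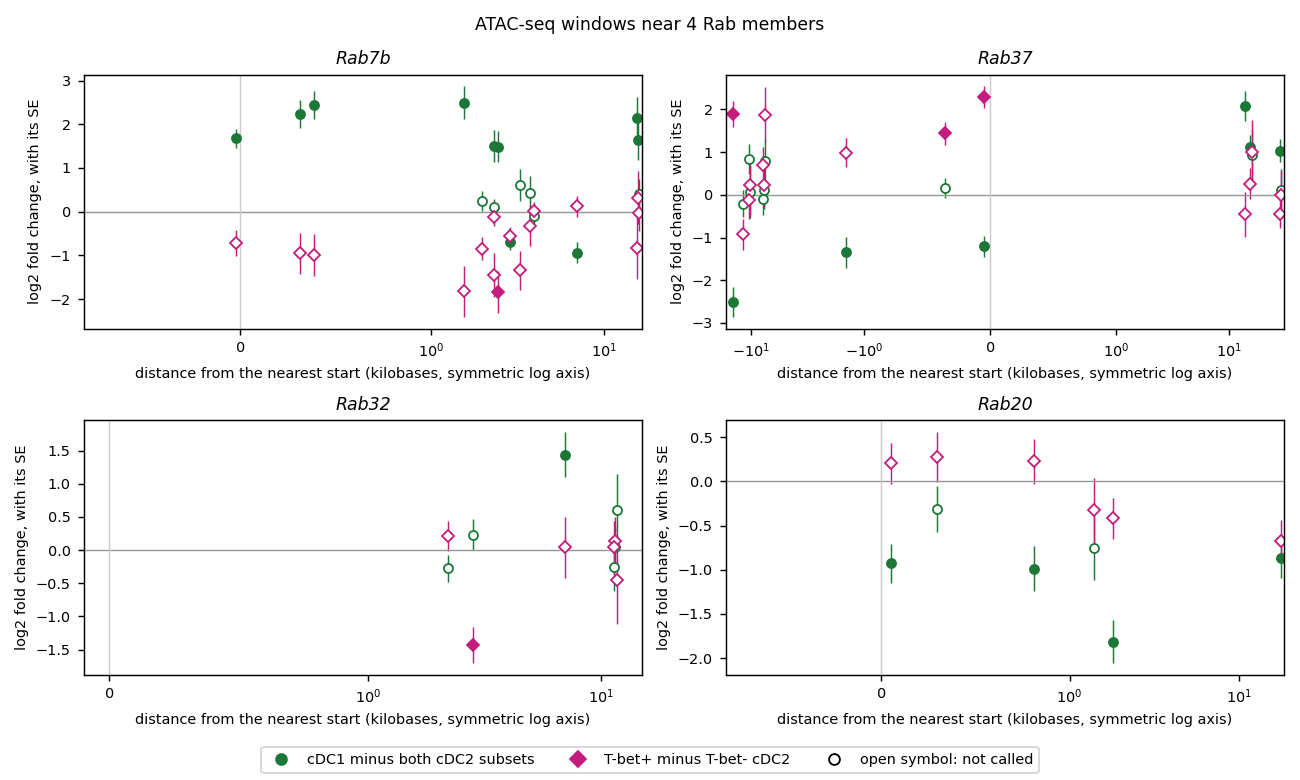
Log2 fold change with its standard error of each tested ATAC-seq window near Rab7b, Rab37, Rab32 and Rab20 against the distance from the nearest start of the gene (kilobases, symmetric log axis), with green circles for cDC1s minus both cDC2 subsets and magenta diamonds for T-bet+ minus T-bet- cDC2s, filled where called. Windows near Rab7b are mostly above 0 in green, called green windows near Rab20 are all below 0, and the highest magenta diamond near Rab37, at 2.29, lies at its start.

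The sequences of some of the windows with the largest called difference near members that were called in spleen were read from the genome (chosen after their values were seen, without exon bases), so that the sites of the differences can be seen. Coordinates are on GRCm38 (mm10), the sequences are of the + strand and 5′ to 3′, and capitals mark matches to any of 8 short motifs searched on both strands: T-box AGGTGTNA, ETS-IRF composite (GGAA, any 2 bases, then GAAA), AP-1 TGANTCA, PU.1 GAGGAAGT, C/EBP TTGCNNAA, Runx TGTGGTT, the TFEB E-box TCACGTG and ROR TAGGTCA. The first 2 lines are the Rab7b windows at 1554 and 2432 bases, and the third is the Rab37 window that ends before the exon of its inner start. A match is a description of letters, not a bound site, and a window without capitals holds only none of these letters.
Rab7b chr1:131690246-131690395: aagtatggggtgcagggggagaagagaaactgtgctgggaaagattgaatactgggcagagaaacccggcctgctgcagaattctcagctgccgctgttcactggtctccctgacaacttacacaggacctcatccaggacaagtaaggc
Rab7b chr1:131691124-131691273: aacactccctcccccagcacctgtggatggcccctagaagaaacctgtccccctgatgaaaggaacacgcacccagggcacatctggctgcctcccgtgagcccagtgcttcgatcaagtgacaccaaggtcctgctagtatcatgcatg
Rab37 chr11:115154030-115154156: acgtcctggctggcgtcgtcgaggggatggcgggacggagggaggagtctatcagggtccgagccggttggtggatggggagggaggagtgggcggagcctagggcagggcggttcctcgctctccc
Rab30 chr7:92820509-92820658: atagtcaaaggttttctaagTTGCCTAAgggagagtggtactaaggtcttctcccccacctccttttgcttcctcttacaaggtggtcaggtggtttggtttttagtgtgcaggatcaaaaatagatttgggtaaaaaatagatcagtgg
Rab32 chr10:10555300-10555449: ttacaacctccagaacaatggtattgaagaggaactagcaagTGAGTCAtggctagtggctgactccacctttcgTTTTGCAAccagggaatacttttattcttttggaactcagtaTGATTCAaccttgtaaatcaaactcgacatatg
Rab31 chr17:65663860-65664009: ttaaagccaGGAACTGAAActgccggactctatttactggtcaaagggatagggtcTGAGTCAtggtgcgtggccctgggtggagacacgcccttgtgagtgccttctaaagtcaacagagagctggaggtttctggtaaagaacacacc
Rab27a chr9:73086632-73086781: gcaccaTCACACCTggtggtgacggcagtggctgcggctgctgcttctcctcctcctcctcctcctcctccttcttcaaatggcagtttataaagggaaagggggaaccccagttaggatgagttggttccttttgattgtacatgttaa
Rab20 chr8:11476835-11476984: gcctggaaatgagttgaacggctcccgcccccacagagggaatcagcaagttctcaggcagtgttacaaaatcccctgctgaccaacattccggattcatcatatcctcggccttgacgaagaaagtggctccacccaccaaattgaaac

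At Rab37 the window of the third line, at -53 bases from an inner start of the gene, was at 30.5 and 19.6 CPM in T-bet+, 4.03 and 6.01 CPM in T-bet- cDC2s and 4.35 and 5.41 CPM in cDC1s. The T-bet+ libraries were apart from the other 4, as in the RNA (T-bet+ minus T-bet- 2.29 ± 0.25 on the log2 scale, adjusted p = 1.79e-10). A window outside the gene, at -14641 bases from the outer start, was at 14.3 and 11.7 CPM in T-bet+, 2.57 and 4.31 CPM in T-bet- cDC2s and 1.18 and 1.16 CPM in cDC1s (1.89 ± 0.30, adjusted p = 2.58e-06). The third line holds none of the 8 motifs. At Rab30 a window 663 bases after an inner start was at 8.87 and 9.33 CPM in T-bet+, 3.30 and 3.81 CPM in T-bet- cDC2s and 9.06 and 9.15 CPM in cDC1s (T-bet+ minus T-bet- 1.34 ± 0.29, adjusted p = 0.000596), and it held 1 C/EBP match. Its promoter window, the strongest near Rab30 at 80.6 to 135 CPM, was less open in cDC1s by a log2 fold change of -0.53 and was not called between the cDC2 subsets (-0.10).

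For members that were higher in T-bet- cDC2s, the Rab32 window was at 12.8 and 12.8 CPM in T-bet-, 3.57 and 5.91 CPM in T-bet+ cDC2s and 10.0 and 8.24 CPM in cDC1s (-1.43 ± 0.27, adjusted p = 6.94e-05), and it held 2 AP-1 matches and 1 C/EBP match. The Rab31 window was at 1.71 and 2.61 CPM in T-bet-, 0.325 and 0.622 CPM in T-bet+ cDC2s and 1.29 and 0.773 CPM in cDC1s (-2.17 ± 0.59, adjusted p = 0.00812), with 1 ETS-IRF and 1 AP-1 match. At Rab27a the called windows went against the RNA: both were more open in T-bet+ cDC2s, and the printed one, at 9.41 and 7.98 CPM in T-bet+ against 4.40 and 3.71 CPM in T-bet- cDC2s (1.10 ± 0.29, adjusted p = 0.00658), held the only T-box match of these windows. At Rab20 no window was called between the cDC2 subsets, and the printed window, less open in cDC1s at 4.94 and 3.35 CPM against 12.0 to 18.5 CPM (-1.81 ± 0.24, adjusted p = 3.51e-09), held none of the motifs.

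Over all 177956 windows the motifs were found in 1.92% (T-box), 3.19% (ETS-IRF), 7.9% (AP-1), 5.5% (PU.1), 5.89% (C/EBP), 5.23% (Runx), 1.24% (E-box) and 1.57% (ROR). Over the 418 windows near members the shares were 1.67%, 3.35%, 6.22%, 7.42%, 7.66%, 4.31%, 1.44% and 0.718%. Windows where chromatin and RNA parted were also found near Rab21, whose RNA was lower in cDC1s. A window 34001 bases from its start was at 5.29 and 6.96 CPM in cDC1s and 0.207 to 1.203 CPM in cDC2s (3.38 ± 0.38, adjusted p = 1.78e-11). Near Rab10, whose RNA was not among the 13 members called in spleen but was called with the class as a term, 5 windows were more open and 1 less open in cDC1s, the largest at 8.12 and 7.21 CPM against 0.415 to 1.08 CPM (3.37). Near Rab2a, which was not called between the spleen cDC2 subsets in RNA, 6 of 23 windows were more open in T-bet+ cDC2s, the most of any member in that comparison.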

How the data were processed

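RNA-seq (16 libraries) and ATAC-seq (6 libraries) of sorted dendritic cells were analysed as deposited. For RNA-seq, the authors amplified RNA with SMART-Seq v4, aligned reads to mm10 with HISAT2 2.1.0, kept uniquely aligned reads with SAMtools 1.9 and deposited the count of reads on each GENCODE gene, not normalized. ATAC-seq reads were mapped with Bowtie2 2.2.5 and shifted by strand, and the authors called peaks on all replicates together with MACS2 2.1.1.20160309 and deposited the count of reads in windows of 150 bases around summits. The deposited peak score column and the −log10 p values of the authors' peak caller were not used.

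Counts were tested in R 4.3.3 with edgeR 4.0.16 (quasi-likelihood test, TMM normalization, low counts removed by filterByExpr, Benjamini-Hochberg adjustment over all genes or windows tested). Spleen, MLN and both tissues were fitted separately, on 14377, 15298 and 16795 genes, with cDC1s set against the mean of both cDC2 subsets, and T-bet+ against T-bet- cDC2s. Calls needed an adjusted p under 0.05 for genes and, for windows, under 0.01 with an absolute log2 change over 0.5. Reads in windows were 7270164 to 10081555 per ATAC-seq library. Exon lengths and positions came from the GRCm38 annotation, and sequences from the GRCm38 genome. The tests were also run on simulated counts. Alternatives were DESeq2 1.42.0, other scaling, filters and dispersions, a replicate block, the GC class as a term, and each library left out. No 2 RNA libraries were identical (0 pairs). The genes named were the members called in a comparison, those with the 5 highest and 3 lowest levels per kilobase, Rabs known from dendritic cells or phagosomes, and the 3 called regulators of each class with the largest change in each direction, of which 1 is not reported here. Members, gene lists and tests were chosen with earlier results of these data known.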

Additional observations from a re-analysis of the deposited data

How the results depend on the processing

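No named member or window called in the main fit changed direction under any alternative. None called only under an alternative had the opposite direction in the main fit. Directions were not compared where neither fit gave a call, and there they could differ. Between the spleen cDC2 subsets Rab43, not called, had a mean of 44.2 CPM in T-bet+ and 21.9 CPM in T-bet- cDC2s. With the GC class as a term its log2 fold change was -0.33. Between the spleen cDC2 subsets 2 members were higher and 5 lower in T-bet+ cDC2s. These became 5 and 5 without a filter on low counts, where 1521 of 31967 genes were called. They became 2 and 2 with a replicate block, and also without T-bet+ replicate 1 or 3. Among members called in spleen, Rab13, Rab19, Rab20, Rab32, Rab33b, Rab37, Rab39 and Rab7b were called between cDC1s and cDC2s under all 16 alternatives, and Rab30, Rab32, Rab37 and Rab7b between the cDC2 subsets under all 17, whereas Rab7 was kept in 4 of 16 and Rab27a in 6 of 17. In MLN, Rab7b and Rab33b were kept in all 13. For cDC1s against cDC2s in MLN the count of 7 members (1401 of 15298 genes) became 14 with DESeq2 (2462 of 27006 genes). It became 17 without a filter on low counts (2673 of 27006 genes). The 0 members called between the cDC2 subsets in MLN became 1 without the filter (554 of 27006 genes). For spleen minus MLN, the 0 members of the cDC1 comparison became 2 with DESeq2 (218 of 34047 genes) and 5 without the filter (451 of 34047). They became 1 with the newer quasi-dispersion estimate (39 of 16795). The 0 of the cDC2 comparison became 1 with DESeq2 (39 of 34047) and 1 without the filter (186 of 34047). The 93 windows called in the cDC1 comparison became 59 with DESeq2 (25228 of all 177956 windows) and 58 over whole peaks (26769 of all 73293 peaks). The 27 of the cDC2 comparison became 14 with DESeq2 (4844 of 177956 windows). At an adjusted p under 0.05 without a fold threshold they became 56 (18870 of 166547 windows). The cause was not tested.

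Same-numbered libraries of different subsets deviated together with r of -0.715 to 0.408 in spleen and -0.142 to 0.644 in MLN by the replicate label. By the number in the library name the MLN range was -0.0159 to 0.644, with 4 of 5 pairs over 0.1. By neither numbering did every pair exceed 0.1, the level set for pairing. With a replicate block, 4 members (356 of all 14377 genes) were called between the spleen cDC2 subsets. In MLN 3 members (782 of all 15298 genes) were called between cDC1s and cDC2s. The MLN count was 22 with the number in the library name, where the count over all genes went from 1401 to 3466. In the other comparisons the count of members stayed within 1.5 times.

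With 1 library left out, the members called ranged from 4 to 10 between the spleen cDC2 subsets (4 without T-bet+ replicate 1 or 3), from 3 to 7 between cDC1s and cDC2s in MLN (3 or 4 without T-bet- replicate 1 or 2 or cDC1 replicate 2 or 3), and from 4 to 10 between the cDC2 subsets of both tissues (4 or 5 without MLN T-bet- replicate 1 or 2 or T-bet+ replicate 1). For spleen minus MLN in the cDC1 comparison they ranged from 0 to 1 (1 without MLN T-bet+ replicate 1). The windows ranged from 49 to 98 in the cDC1 comparison (49 without cDC1 replicate 2) and from 12 to 29 in the cDC2 comparison (12 to 14 without T-bet- replicate 1 or 2 or T-bet+ replicate 1). With 1 spleen library left out, the count over all genes between the spleen cDC2 subsets ranged from 307 to 1257. Between cDC1s and cDC2s in spleen the count of 13 members ranged from 9 to 18. It was 9 without cDC1 replicate 2 (1871 of 15298 genes) and 18 without T-bet- replicate 3 (3427 of 15139 genes). In both tissues together the 19 members ranged from 16 to 25, with 25 without spleen T-bet- replicate 3 (4811 of 16668 genes). The fit on the 6 spleen libraries of the higher class was chosen after seeing the data and has 1 T-bet- library.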
